A study of Schizosaccharomyces pombe with 36 samples.

Results

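Levels of 7 genes of the glucose-cAMP signalling pathway of fission yeast, Schizosaccharomyces pombe, were followed through an osmotic stress: the glucose receptor gene git3, the G protein alpha subunit gene gpa2, the protein kinase A genes pka1 (catalytic subunit) and cgs1 (regulatory subunit), the cAMP phosphodiesterase gene cgs2, the zinc finger factor gene rst2, and fbp1, which encodes fructose-1,6-bisphosphatase and is the best known target of the pathway. The 7 genes were found by their symbols among the 7039 features of a strand-specific RNA-seq table. The lookup uses no measured value, but the genes were chosen with earlier results of these data known. All 7 passed the filter on low values (a minimum RPKM of 1, reached in more than 6 libraries), as did 5882 features in all. The table holds 36 libraries: WT cells, and cells labelled atf21Δ (a deletion of atf21, a gene for an ATF/CREB family transcription factor), each with 3 biological replicates harvested before 1 M sorbitol was added (0 min) and again at 15 min, 30 min, 60 min, 120 min and 180 min of exposure. Both strains grew in yeast extract medium, and the 0 min cells of each strain are its only unstressed control. The methods describe the deletion mutants as made by replacing a gene with a drug resistance cassette, and whether the line is 1 clone is not given in the sources used here. Levels are in RPKM, the read number divided by feature length and by the library's uniquely mapped reads, and the libraries hold 7457173 to 20126545 such reads. Each library was made from a whole culture, so less RNA per cell and fewer cells carrying the RNA cannot be told apart.

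The deleted gene was checked first. Reads of atf21 were present in every library labelled atf21Δ, from 0.267 to 0.629 RPKM at 0 min and from 15.4 to 30.4 RPKM at 30 min, against 0.0457 to 0.125 RPKM and 27.8 to 29.2 RPKM in WT. At 60 min the atf21Δ-labelled libraries held 1.97 to 3.18 RPKM and WT held 0.363 to 0.483 RPKM. An exact two-sided permutation test of 3 against 3 libraries cannot go below p = 0.10, so it could not show a strain difference at 0.05 (p from 0.10 to 0.50). At 0 and 60 min the libraries of the strains did not overlap, and p was at that lowest value. The table does not say which part of atf21 the reads came from, and the values go against the label, so the label is kept only as a name here, and any direction given between WT and these samples depends on it.

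In glucose-rich medium, fission yeast holds gluconeogenesis off through cAMP. Git3, a receptor at the cell surface, acts through the G protein alpha subunit Gpa2 (with Git5 as beta and Git11 as gamma subunit) on the adenylate cyclase Cyr1, cAMP binds the regulatory subunit Cgs1 and frees the catalytic subunit Pka1, and Pka1 keeps Rst2 from activating fbp1. Cgs2 breaks cAMP down. The stress-activated MAP kinase cascade, which ends in Sty1 and the Atf1-Pcr1 dimer, acts on the fbp1 promoter from the other side and is also the main pathway of the osmotic stress response.

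Stretches of promoter are shown for fbp1, cgs1 and cgs2 as examples, and other genes of the set had matches as well. The stretches hold letters of elements through which these factors are known to bind DNA: TGACGT, the core of the ATF/CREB element, and CCCCTC, the element of Rst2. Both were searched on both strands in the 1500 bases before each start codon (the sequences are those of RefSeq, assembly ASM294v3, whose coordinates run with those of the deposited table: 99.9% of 5104 RefSeq coding sequences lay inside the feature of the same ID). Capitals mark the matches, and each line is read 5′ to 3′ on the strand of the gene.
fbp1, around its TGACGT match on the opposite strand (chrII:200257-200356, minus strand): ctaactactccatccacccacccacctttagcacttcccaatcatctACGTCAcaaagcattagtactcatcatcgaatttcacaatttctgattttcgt
fbp1, around its CCCCTC match (chrII:199624-199723, minus strand): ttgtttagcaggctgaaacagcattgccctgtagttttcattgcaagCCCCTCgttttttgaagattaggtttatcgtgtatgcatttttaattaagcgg
cgs1, the 100 bases before its transcript (chrI:3642872-3642971, plus strand): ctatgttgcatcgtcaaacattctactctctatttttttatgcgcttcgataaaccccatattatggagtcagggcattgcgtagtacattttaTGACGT
cgs2, the 100 bases before its transcript (chrIII:1812647-1812746, minus strand): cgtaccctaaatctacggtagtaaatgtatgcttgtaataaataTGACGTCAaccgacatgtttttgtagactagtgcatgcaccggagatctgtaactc

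The matches of fbp1 began at position -1167 (TGACGT, opposite strand) and -534 (CCCCTC), counted from -1 just before the start codon, both upstream of the annotated start of its transcript at -332. In cgs1 the TGACGT match at -273 ended directly before the transcript start at -267, and cgs2 matched TGACGT on both strands at -71 and -69, where the matches overlap each other, just before its transcript start at -15, and CCCCTC at -461. pka1 had no TGACGT match and 1 CCCCTC match at -866. gpa2 matched both, at -969 and -1134, and the matches of rst2 (TGACGT at -709) and of git3 (TGACGT at -734, CCCCTC at -1278) lay inside their own annotated transcripts. TGACGT was thus found for 6 of the 7 genes, CCCCTC for 5 of 7 and both for 4 of 7, beside 20.9%, 11.6% and 3.0% of the 5144 coding genes searched. A match describes letters in a window and is not a measured binding site.

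pka1 and cgs1, the 2 subunits of the kinase, rose together to 6.68-fold and 6.85-fold of their unstressed level at 30 min in WT, and fbp1 rose to 4.16-fold at the same time from a level near the low end of the table. git3 moved the other way and earlier, falling at 15 min to 0.275 of its unstressed level in WT. rst2 rose at 30 min in WT by a smaller step, and cgs2 and gpa2 passed no test at any single time. The atf21Δ-labelled libraries gave folds of 6.87 for pka1, 7.15 for cgs1, 4.68 for fbp1 and 0.345 for git3 at those times. These folds are ratios of mean RPKM after scaling of the libraries.

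By the F-test over the 5 times against 0 min (limma on log2 of scaled RPKM plus 0.5, Benjamini-Hochberg adjustment over all features), 6 of 7 genes changed in WT, where 51.8% of all features did, and 6 of 7 changed in the atf21Δ-labelled libraries, where 62.3% did. gpa2 missed in WT and rst2 missed in the atf21Δ-labelled libraries. At single times in WT, 2 of 7 genes were higher at 15 min, 4 of 7 at 30 min, 2 of 7 at 60 min, 1 of 7 at 120 min and 1 of 7 at 180 min, against 10.8%, 15.5%, 7.60%, 3.23% and 2.72% of all features. The atf21Δ-labelled libraries gave 2 of 7, 3 of 7, 1 of 7, 2 of 7 and 2 of 7 at the same times, against 13.4%, 19.7%, 8.65%, 4.69% and 4.45%. In each strain 1 of 7 genes, git3, was lower at 15 min (all features: 11.5% in WT and 14.1% in the atf21Δ-labelled libraries). The median change of the 7 genes at 30 min was 0.85 (log2) in WT and 0.37 in the atf21Δ-labelled libraries, and the median of all features was -0.01 and -0.02.

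**Figure D1:**
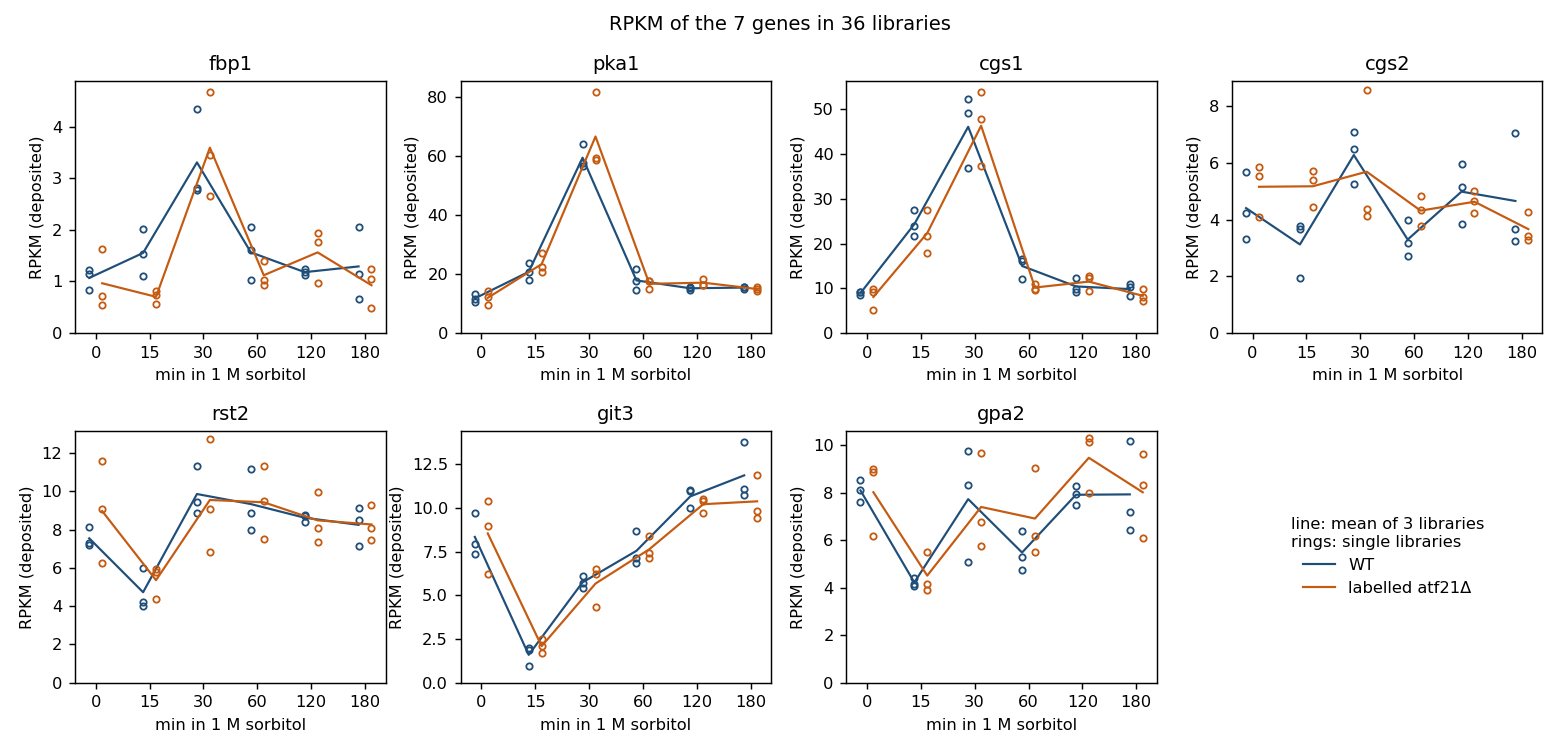
Deposited RPKM of the 7 genes (y axis, linear, from 0) at each time in 1 M sorbitol (x axis, min, evenly spaced categories); rings are single libraries, lines join the means of 3, blue is WT and orange the atf21Δ-labelled libraries. pka1 and cgs1 stand highest at 30 min in both strains, fbp1 reaches 2.65 to 4.67 RPKM at 30 min, and git3 is lowest at 15 min, from 0.934 to 2.48 RPKM.

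fbp1 (SPBC1198.14c, chromosome II, 197660 to 199474, minus strand) was the lowest of the 7 genes before stress, at 1.07 ± 0.202 RPKM in WT (SD, n = 3) and 0.965 ± 0.585 RPKM in the atf21Δ-labelled libraries. Its values rested on 9 to 123 reads per library, with a median of 28.5. In WT the 3 libraries held 1.22, 0.839 and 1.15 RPKM at 0 min, 2.03, 1.10 and 1.53 RPKM at 15 min, and 2.77, 4.34 and 2.81 RPKM at 30 min. They were back at 1.03, 1.60 and 2.06 RPKM at 60 min, 1.18, 1.12 and 1.24 RPKM at 120 min, and 0.668, 2.06 and 1.15 RPKM at 180 min. All 3 WT libraries of 30 min lay above all 3 of 0 min, and at every other time the deposited values of WT overlapped those of 0 min. After scaling, the WT libraries of 15, 60 and 120 min also lay above those of 0 min. At 15 min they held 1.38 to 2.47 scaled RPKM, against 0.862 to 1.05 at 0 min. The atf21Δ-labelled libraries held 0.718, 1.63 and 0.545 RPKM at 0 min, 0.736, 0.561 and 0.811 RPKM at 15 min, and 3.45, 4.67 and 2.65 RPKM at 30 min. Later they held 0.923, 1.04 and 1.40 RPKM at 60 min, 1.76, 1.95 and 0.978 RPKM at 120 min, and 1.25, 1.04 and 0.488 RPKM at 180 min. Here only the 30 min libraries stood clear of the 0 min ones, both as deposited and after scaling.

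The change of fbp1 at 30 min was 1.59 ± 0.30 on the log2 scale in WT (limma, SE; Benjamini-Hochberg adjusted p = 0.0013) and 1.72 ± 0.31 in the atf21Δ-labelled libraries (adjusted p = 0.00059), which placed it above 96.5% and 96.7% of all features tested. It stayed past the threshold without any single library, with a change of 1.35 to 1.76 in WT and 1.48 to 1.99 in the atf21Δ-labelled libraries. At 15 min the change was 0.75 ± 0.30 in WT (limma adjusted p = 0.11) and 0.06 ± 0.31 in the atf21Δ-labelled libraries (adjusted p = 0.93), and no later time passed the test in either strain. Ordered by mean scaled RPKM over the 12 groups, fbp1 was highest in WT at 30 min (4.06 ± 1.40, SD, n = 3) and in the atf21Δ-labelled libraries at 30 min (3.79 ± 1.33), then in WT at 15 min (2.03 ± 0.57), and lowest in the atf21Δ-labelled libraries at 0 min (0.810 ± 0.46). Neighbours in that order overlapped in their libraries in all cases but 1, WT at 120 min (1.06 to 1.31 scaled RPKM) and WT at 0 min (0.862 to 1.05).

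pka1 (SPBC106.10, chromosome II, 396752 to 398957, plus strand) encodes the catalytic subunit that represses fbp1, and it was the gene of the 7 with the highest level before stress and at 30 min. The WT libraries held 13.2, 11.7 and 10.4 RPKM at 0 min, 23.9, 20.6 and 17.9 RPKM at 15 min, and 57.8, 64.2 and 56.6 RPKM at 30 min. They fell back to 14.5, 21.6 and 17.5 RPKM at 60 min, 15.5, 15.4 and 14.7 RPKM at 120 min, and 15.7, 14.9 and 15.7 RPKM at 180 min. At all 5 times every WT library lay above every WT library of 0 min. In the atf21Δ-labelled libraries the values were 9.59, 12.2 and 14.1 RPKM at 0 min, 22.5, 20.6 and 27.0 RPKM at 15 min, and 58.9, 59.3 and 81.9 RPKM at 30 min. At 60 min they were 14.8, 17.7 and 17.6 RPKM, at 120 min 16.5, 16.5 and 18.4 RPKM, and at 180 min 14.9, 15.6 and 14.3 RPKM. Here too every later library lay above every 0 min library. From the first to the last time, the log2 changes were 1.28, 2.68, 0.58, 0.43 and 0.55 in WT (SE 0.12 each) and 1.40, 2.72, 0.51, 0.55 and 0.55 in the atf21Δ-labelled libraries (SE 0.11 each), and all 10 passed the test (limma, Benjamini-Hochberg adjusted p = 1.7e-10 and 6.4e-12 at 30 min).

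The smallest of these, pka1 at 120 min in WT (adjusted p = 0.023), was lost without 1 of 4 libraries: WT 0 min replicate 1 (limma adjusted p = 0.05), 0 min replicate 3 (0.12), 120 min replicate 2 (0.052) and 120 min replicate 3 (0.075). It was also lost when the RPKM were used as deposited, without scaling (change 0.36, adjusted p = 0.12), as were the 180 min changes of pka1 in WT (0.38, adjusted p = 0.10) and in the atf21Δ-labelled libraries (0.33, adjusted p = 0.19).

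cgs1 (SPAC8C9.03, chromosome I, 3642972 to 3645636, plus strand) encodes the regulatory subunit that holds Pka1 inactive until cAMP binds, and its RNA rose with that of pka1. WT libraries held 9.17, 9.10 and 8.50 RPKM at 0 min, 23.8, 21.7 and 27.4 RPKM at 15 min, and 36.9, 49.1 and 52.2 RPKM at 30 min. The values were 12.2, 16.2 and 16.6 RPKM at 60 min, 9.90, 9.08 and 12.3 RPKM at 120 min, and 8.30, 10.95 and 10.2 RPKM at 180 min. The WT libraries of 15, 30 and 60 min stood clear above those of 0 min, and those of 120 and 180 min overlapped them. The atf21Δ-labelled libraries held 5.27, 9.82 and 9.12 RPKM at 0 min, 17.98, 21.6 and 27.4 RPKM at 15 min, and 37.3, 47.8 and 53.9 RPKM at 30 min. They held 9.67, 9.90 and 10.96 RPKM at 60 min, 9.48, 12.8 and 12.2 RPKM at 120 min, and 8.08, 7.10 and 9.81 RPKM at 180 min. As deposited, only their 15 and 30 min values stood clear of 0 min.

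In WT the log2 change of cgs1 was 1.88 ± 0.20 at 15 min and 2.67 ± 0.20 at 30 min, beside 1.88 ± 0.16 and 2.76 ± 0.16 in the atf21Δ-labelled libraries (limma, SE; Benjamini-Hochberg adjusted p = 5.4e-06, 8.5e-08, 1.3e-07 and 7.8e-10). At 60 min the change of 0.71 in WT passed (adjusted p = 0.026) and that of 0.40 in the atf21Δ-labelled libraries did not (0.098). The WT call at 60 min was lost without 1 of 5 libraries: WT 0 min replicate 1 (limma adjusted p = 0.082), 0 min replicate 3 (0.087) and each of the 60 min replicates (0.057, 0.060 and 0.063). cgs1 was also higher in the atf21Δ-labelled libraries at 120 min (0.55, adjusted p = 0.022), a call lost without their 0 min replicate 1 (0.40, adjusted p = 0.12), without their 120 min replicate 2 (0.45, 0.095) and without scaling (0.52, 0.087).

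The ratio of pka1 to cgs1 in RPKM, which does not depend on the scaling, compares the subunits within a library. In WT it was 1.44, 1.29 and 1.22 at 0 min, 1.00, 0.95 and 0.65 at 15 min, and 1.57, 1.31 and 1.08 at 30 min, so the 15 min libraries lay below those of 0 min and the 30 min libraries overlapped them. The atf21Δ-labelled libraries gave 1.82, 1.24 and 1.55 at 0 min, 1.25, 0.96 and 0.99 at 15 min, and 1.58, 1.24 and 1.52 at 30 min, with a narrow overlap between 15 and 0 min. The highest mean ratio was that of 180 min in both strains, 1.60 ± 0.27 in WT and 1.84 ± 0.37 in the atf21Δ-labelled libraries (SD, n = 3). Its libraries overlapped those of 0 min in both strains (1.36 to 1.89 against 1.22 to 1.44 in WT, 1.46 to 2.20 against 1.24 to 1.82 in the others). Over the 36 libraries the log2 levels of pka1 and cgs1 had a Pearson's r of 0.95 and a Spearman's rho of 0.91, given as a description of libraries that share times and strains.

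**Figure D2:**
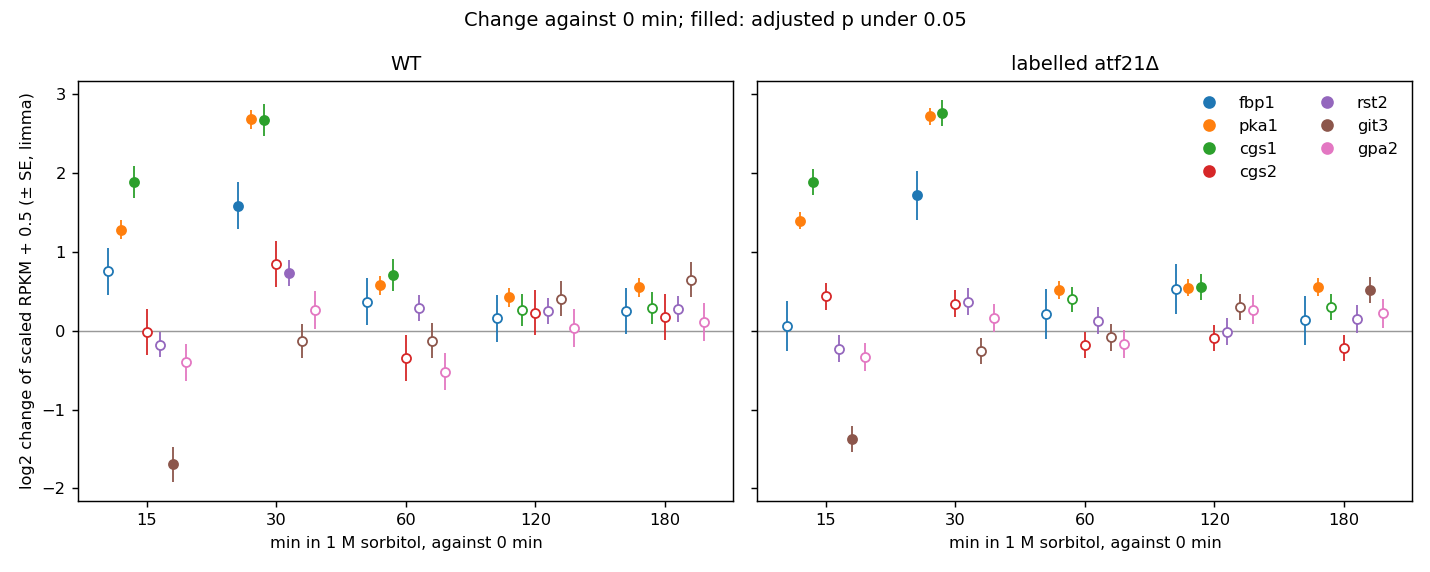
Log2 change of scaled RPKM plus 0.5 against 0 min (y axis, ± SE from limma) at each later time (x axis, min) for the 7 genes, WT on the left and the atf21Δ-labelled libraries on the right; filled points passed the test (adjusted p under 0.05), open points did not. pka1 and cgs1 lie between 2.67 and 2.76 at 30 min in both strains, fbp1 at 1.59 and 1.72, and git3 is the 1 gene below zero with a filled point, at 15 min.

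git3 (SPCC1753.02c, chromosome III, 1542333 to 1546161, minus strand), the receptor gene at the head of the pathway, was the 1 gene of the 7 called lower after scaling (without it gpa2 and rst2 were also called lower at 15 min). WT libraries held 7.39, 7.95 and 9.69 RPKM at 0 min, 0.934, 1.97 and 1.89 RPKM at 15 min, and 5.73, 5.41 and 6.09 RPKM at 30 min. They then held 6.86, 7.12 and 8.65 RPKM at 60 min, 10.003, 11.006 and 10.961 RPKM at 120 min, and 11.1, 10.8 and 13.8 RPKM at 180 min. As deposited, the 15 min libraries lay far below the 0 min libraries and those of 30 min still below them. Those of 120 and 180 min lay above those of 0 min. After scaling, the 30 min libraries overlapped those of 0 min (6.18 to 7.71 against 6.15 to 8.86 scaled RPKM). The log2 change at 30 min in WT was -0.13 (limma adjusted p = 0.80). The atf21Δ-labelled libraries held 6.23, 8.98 and 10.4 RPKM at 0 min, 2.09, 2.48 and 1.72 RPKM at 15 min, and 6.22, 4.31 and 6.49 RPKM at 30 min. At 60 min they held 7.40, 7.14 and 8.38 RPKM, at 120 min 9.70, 10.5 and 10.4 RPKM, and at 180 min 9.83, 9.43 and 11.9 RPKM. Only their 15 min libraries stood clear of 0 min in the deposited values.

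The fall of git3 at 15 min was -1.70 ± 0.22 in WT (limma log2 change, SE; Benjamini-Hochberg adjusted p = 3.8e-05) and -1.37 ± 0.17 in the atf21Δ-labelled libraries (adjusted p = 8.2e-06), below all but 0.78% and 0.75% of the features tested. Without any single library it ranged from -1.88 to -1.39 in WT and from -1.45 to -1.23 in the atf21Δ-labelled libraries, past the threshold each time. At 180 min git3 was higher in the atf21Δ-labelled libraries (0.51 ± 0.17, limma adjusted p = 0.035), and the WT value of 0.65 ± 0.22 did not pass (0.059). Neither result was stable. The call in the atf21Δ-labelled libraries was lost without the 0 min replicates 1 (adjusted p = 0.13) and 2 (0.073) and the 180 min replicates 1 (0.070) and 3 (0.14) of the atf21Δ-labelled libraries, without scaling (0.29, 0.34) and in 1 fit of all libraries (0.073). The WT value passed without WT 15 min replicate 1 (limma adjusted p = 0.010) or replicate 3 (0.037), and also with voom (0.010), in 1 fit of all libraries (0.020) and with a pseudocount of 1 (0.041).

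gpa2 (SPAC23H3.13c, chromosome I, 2516053 to 2519235, minus strand), the gene of the G protein alpha subunit below Git3, showed a shallower course. The WT libraries held 7.63, 8.13 and 8.56 RPKM at 0 min, 4.43, 4.16 and 4.09 RPKM at 15 min and 5.10, 8.34 and 9.77 RPKM at 30 min, so in deposited values the 15 min libraries lay below all of 0 min. After scaling the change at 15 min was -0.40 ± 0.24 (limma adjusted p = 0.32), and without scaling it was -0.86 and passed (adjusted p = 0.0069). The values at 15 min in the atf21Δ-labelled libraries were 3.89, 4.16 and 5.49 RPKM against 6.20, 8.87 and 9.01 RPKM at 0 min, a change of -0.33 ± 0.18 (adjusted p = 0.22), or -0.76 without scaling (0.018). The F-test gave an adjusted p of 0.055 in WT, which became 0.0020 without WT 30 min replicate 1 (without it gpa2 was also higher at 30 min, 0.60, adjusted p = 0.047). It also passed without scaling (limma adjusted p = 0.0069), with a minimum RPKM of 5 (0.048), with voom (0.047) and in 1 fit of all libraries (0.014). In the atf21Δ-labelled libraries the F-test passed (limma adjusted p = 0.041) and was lost without any of 12 of the 18 libraries: all 3 of 0 min (0.052, 0.052 and 0.054), 15 min replicates 1 and 2 (0.092 and 0.12), 30 min replicates 1 and 3 (0.062 and 0.057), 60 min replicates 1 and 2 (0.052 and 0.064), 120 min replicates 2 and 3 (0.079 and 0.067) and 180 min replicate 2 (0.057). It was lost as well with quantile normalization (0.062), with no filter (0.086) and in 1 fit of all libraries (0.098).

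cgs2 (SPCC285.09c, chromosome III, 1810337 to 1812646, minus strand), the phosphodiesterase gene, lay between 1.93 and 8.55 RPKM in the 36 libraries. In WT it held 3.31, 4.22 and 5.68 RPKM at 0 min and 5.24, 7.09 and 6.50 RPKM at 30 min, a change of 0.85 ± 0.29 (limma adjusted p = 0.061). That value passed without WT 15 min replicate 3 (adjusted p = 0.046), 30 min replicate 1 (0.035) or 180 min replicate 3 (0.036), and also with voom (0.034) and in 1 fit of all libraries (0.012). The F-test of cgs2 passed in both strains (adjusted p = 0.039 in WT and 0.0080 in the atf21Δ-labelled libraries), with no single time past the test. The WT F-test was lost without 1 of 7 libraries: 0 min replicate 2 (limma adjusted p = 0.053), 30 min replicates 2 and 3 (0.15 and 0.13), each 60 min replicate (0.072, 0.088 and 0.063) and 120 min replicate 2 (0.055). Without scaling both were lost (adjusted p = 0.064 and 0.30), as was that of WT with no filter (0.067) and the other in 1 fit of all libraries (0.076). At 30 min the atf21Δ-labelled libraries held 4.37, 4.14 and 8.55 RPKM against 4.08, 5.55 and 5.84 RPKM at 0 min, and the groups overlapped. There the 15 min change of 0.44 (adjusted p = 0.078) passed without 30 min replicate 3 (limma adjusted p = 0.039) and with quantile normalization (0.62, 0.0095), and the 30 min change of 0.34 (0.17) passed without 30 min replicate 2 (0.50, 0.047).

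rst2 (SPAC6F12.02, chromosome I, 1309676 to 1313429, plus strand) encodes the activator of fbp1 that Pka1 restrains. The WT libraries held 7.28, 7.22 and 8.14 RPKM at 0 min, 5.97, 3.99 and 4.23 RPKM at 15 min and 8.84, 9.43 and 11.3 RPKM at 30 min. Those of 15 min lay below all of 0 min as deposited, and those of 30 min above, with a change of 0.73 ± 0.16 at 30 min (limma adjusted p = 0.0049). rst2 in the atf21Δ-labelled libraries held 6.25, 9.06 and 11.6 RPKM at 0 min and 9.10, 6.82 and 12.7 RPKM at 30 min, and the groups overlapped (0.37 ± 0.17, adjusted p = 0.16). The F-test there (limma adjusted p = 0.087) passed without 30 min replicate 2 (0.014, with a 30 min change of 0.56, adjusted p = 0.025) or 60 min replicate 1 (0.041), and without scaling (0.046). Without scaling the 30 min change of rst2 in WT was 0.36 and did not pass (adjusted p = 0.19), while the 15 min changes were -0.64 in WT and -0.66 in the atf21Δ-labelled libraries and did (0.016 and 0.042).

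The scaling of the libraries bears on all of these values, because RPKM are shares of a library and the total RNA per cell was not measured. As deposited, the median feature of WT moved by -0.46 (log2) at 15 min and -0.38 at 30 min, beside -0.43 and -0.30 in the atf21Δ-labelled libraries, so a gene that kept its share among most features had a lower RPKM at these times. After scaling, 48.3% of the calls at 15 min in WT were higher and 54.0% at 30 min, against 7.0% and 20.4% without scaling (48.7% and 50.7%, against 7.0% and 25.1%, in the atf21Δ-labelled libraries). pka1, cgs1 and fbp1 were called higher and git3 lower at 30 and 15 min, respectively, under both. Without scaling the 30 min changes in WT were 2.29 for pka1, 2.29 for cgs1 and 1.26 for fbp1, and the 15 min change of git3 was -2.11.

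**Figure D3:**
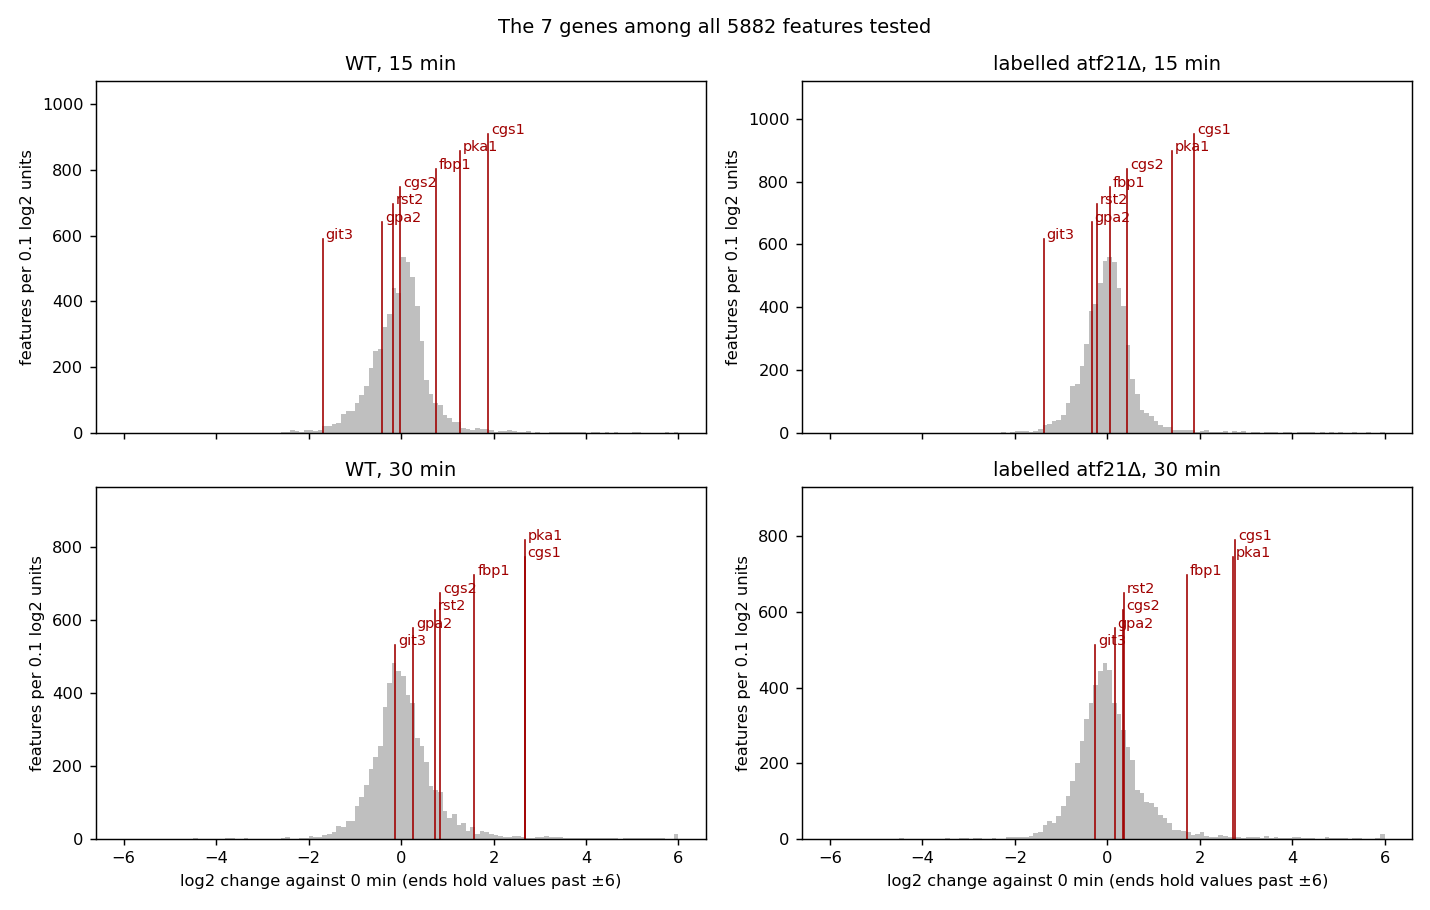
Histograms of the log2 change against 0 min of all 5882 features tested (grey, features per 0.1 log2 units; values past 6 in either direction are stacked in the end bins), with the 7 genes as red lines whose heights carry no value. At 30 min pka1 and cgs1 lie far in the upper tail in both strains, and at 15 min git3 lies in the lower tail.

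Whether the strains differed was tested in 1 fit of all 36 libraries. None of the 42 contrasts of the 7 genes (atf21Δ-labelled against WT at each of 6 times) passed the test by limma with Benjamini-Hochberg adjustment, and 3 of 42 had an unadjusted p under 0.05 (limma). Over all features 19 differed at 1 or more times, 0.323% of those tested. The time course as a whole differed between the strains for 0 of 7 genes by the interaction F-test (0 of 7 unadjusted, limma) and for 2 features in all, 0.0340%. None passed under any of the alternatives, voom on read counts included. The largest difference was that of fbp1 at 15 min, when the WT libraries held 1.10 to 2.03 RPKM and those labelled atf21Δ 0.561 to 0.811 RPKM, with no overlap. It came to -0.92 on the log2 scale (95% interval -1.55 to -0.29, unadjusted p = 0.0056 by limma, adjusted p = 0.46, and from 0.17 to 0.82 with any 1 library left out). cgs1 was lower in the atf21Δ-labelled libraries at 60 min by a log2 difference of -0.62 (interval -1.01 to -0.23, limma adjusted p = 0.35), and cgs2 higher at 15 min by 0.55 (0.05 to 1.04, adjusted p = 0.78). At 30 min the differences were -0.10 for fbp1 (-0.73 to 0.53), -0.08 for pka1 (-0.31 to 0.15) and -0.22 for cgs1 (-0.61 to 0.17), and that of pka1 was the narrowest interval of the 3.

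The fbp1 locus holds 2 annotated noncoding transcripts besides the gene. In glucose starvation, long noncoding RNAs that start far upstream of fbp1 on its own strand are known to precede the mRNA. SPNCRNA.1325 (chromosome II, 199409 to 200559, minus strand) covers that upstream region, the printed windows of both elements included, and shares its last 66 bases with the annotated start of fbp1, so that reads there cannot be told apart. It was sparse, with 0 to 58 reads per library, and was not tested because it failed the filter. In WT it held 0.05, 0.53 and 0.54 RPKM at 0 min, 2.50, 0.39 and 1.29 RPKM at 15 min, and 0.55, 1.46 and 0.75 RPKM at 30 min. In the atf21Δ-labelled libraries it held 0.44, 0.26 and 0.76 RPKM at 0 min, 0.54, 1.16 and 0.08 RPKM at 15 min, and 0.66, 1.83 and 1.89 RPKM at 30 min. The groups of 15 min overlapped those of 0 min in both strains. After scaling, all 3 libraries of 30 min lay above those of 0 min in each strain, by 0.59 to 1.90 against 0.04 to 0.54 scaled RPKM in WT and 0.79 to 1.93 against 0.21 to 0.56 in the atf21Δ-labelled libraries.

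SPNCRNA.1324 (chromosome II, 197369 to 200995, plus strand) runs antisense across the whole of fbp1. Its reads were told apart from those of fbp1 by strand. It held 3.40, 2.46 and 2.87 RPKM at 0 min in WT, 0.32, 1.15 and 1.29 RPKM at 15 min, and 2.13, 1.71 and 2.20 RPKM at 30 min, so that it exceeded fbp1 at 0 min and was lower than fbp1 at 30 min in every WT library. The fall at 15 min in WT was -0.98 ± 0.29 (limma adjusted p = 0.028 for that time, 0.061 for the F-test, which passed at 0.013 without WT 15 min replicate 3). That F-test also passed without scaling (limma adjusted p = 0.0043), with voom (0.0065), in 1 fit of all libraries (0.0039) and without the trend (0.048). In the atf21Δ-labelled libraries SPNCRNA.1324 held 2.40, 3.49 and 3.19 RPKM at 0 min, 1.40, 1.38 and 1.89 RPKM at 15 min and 2.18, 1.78 and 2.88 RPKM at 30 min, and the 15 min change was -0.40 ± 0.16 (adjusted p = 0.083). The F-test there (limma adjusted p = 0.13) passed with voom (0.049) and without the trend (0.033). Across the 18 libraries of a strain, the log2 levels of fbp1 and of SPNCRNA.1324 had an r of -0.14 in WT and 0.21 in the atf21Δ-labelled libraries, and those of fbp1 and SPNCRNA.1325 an r of 0.64 and 0.40. These are descriptions over libraries that share times.

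**Figure D4:**
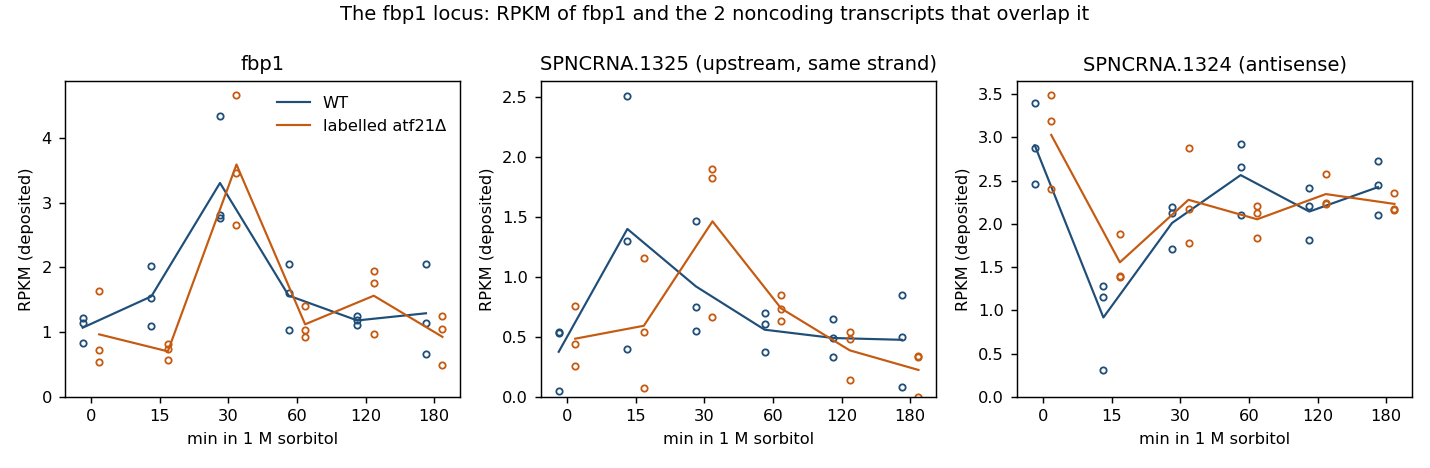
Deposited RPKM (y axis, linear, from 0) of fbp1, of the upstream noncoding transcript SPNCRNA.1325 on the same strand and of the antisense transcript SPNCRNA.1324, by time in 1 M sorbitol (x axis, min, evenly spaced categories); rings are single libraries and lines join means of 3. SPNCRNA.1325 spreads from 0.39 to 2.50 RPKM among the 3 WT libraries of 15 min, and SPNCRNA.1324 is lowest at 15 min in both strains.

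The other genes had fewer overlaps. cgs2 shares 496 bases at its end with ret2 on the other strand, which held 20.1 to 45.3 RPKM, and rst2 shares 194 bases with fsv1, which held 5.92 to 19.4 RPKM. The antisense transcripts SPNCRNA.1203, over 588 bases of git3, and SPNCRNA.197, over 226 bases of gpa2, reached at most 0.47 RPKM (30 reads) and 0.15 RPKM (6 reads) in any library. SPNCRNA.1203 stood at 0.41, 0.25 and 0.38 RPKM at 0 min in WT and at 0.00, 0.02 and 0.09 RPKM at 15 min, when git3 was lowest. No annotated feature overlapped pka1 or cgs1.

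The rest of the pathway was followed through lists of genes with known roles, written with earlier results of these data known. Of 9 other genes of the cAMP pathway, 2 were higher and 2 lower at 15 min in WT, with a median change of 0.01, and 2 were higher and 1 lower at 30 min, with a median of 0.44. Of all features, 10.8% were higher and 11.5% lower at 15 min, and 15.5% higher and 13.2% lower at 30 min. The genes of the G protein beta and gamma subunits stood out by size. gpa2, the gene of the alpha subunit, did not, with 0.26 at 30 min in WT and 0.16 in the atf21Δ-labelled libraries, and passed at no single time. git5, the beta subunit gene, rose in WT by 1.26, 2.15 and 0.62 over the first 3 times, and by 1.29, 2.38, 0.49, 0.82 and 0.63 at the 5 times in the atf21Δ-labelled libraries. git11, the gamma subunit gene, rose by 1.62 and 1.83 at 15 and 30 min in WT and by 0.84 and 1.54 in the atf21Δ-labelled libraries. In the opposite direction, git1, needed for adenylate cyclase activation, fell at 15 min by 1.07 in WT and by 0.71 in the atf21Δ-labelled libraries. cyr1, the adenylate cyclase gene itself, had 0.33 at 30 min in WT, which did not pass, and rose by 0.31 in the atf21Δ-labelled libraries.

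Among the remaining pathway genes, sck2, which encodes a kinase related to Pka1, fell by 0.49 and 0.52 at 15 and 30 min in WT and by 0.49, 0.40 and 0.36 at 15, 30 and 60 min in the atf21Δ-labelled libraries. sck1, the gene of another such kinase, rose by 0.56 at 30 min in the atf21Δ-labelled libraries and stood at 0.44 in WT, which did not pass at that time. hsp90, the chaperone gene, fell at 120 and 180 min by 0.94 and 0.68 in WT and by 1.03 and 0.49 in the atf21Δ-labelled libraries. git7 rose by 0.51 at 60 min in WT, and cap1, the gene of the cyclase-associated protein, rose by 0.44 and 0.56 at 15 and 60 min in the atf21Δ-labelled libraries. The F-test over all times was lost for git1 in the atf21Δ-labelled libraries without their 15 min replicate 1 (limma adjusted p = 0.053), for git7 in WT without 60 min replicate 2 (0.061), for sck1 in WT without 30 min replicate 3 (0.057), and for cap1 in the atf21Δ-labelled libraries without 0 min replicates 1 (0.11) or 3 (0.076) or 60 min replicate 2 (0.054). In the atf21Δ-labelled libraries 3 of 9 were higher and 2 lower at 15 min, and 4 of 9 were higher and 1 lower at 30 min, beside 13.4% and 14.1%, and 19.7% and 19.1%, of all features.

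Of the factors known to act at the fbp1 promoter, atf1 and pcr1, the genes of the activating dimer, rose in WT by 1.21 and 2.59 at 15 min and by 1.69 and 2.93 at 30 min, beside 1.51 and 2.52, and 1.64 and 3.10, in the atf21Δ-labelled libraries. Later, pcr1 was still higher there by 0.68 at 120 min and 0.78 at 180 min, and atf1 by 0.59 at 180 min. Of the co-repressor genes, ssn6 fell at 15 min by 1.52 in WT and 1.28 in the atf21Δ-labelled libraries (and by 0.82 at 30 min in the latter), tup11 fell at 15 min by 0.51 and 0.58, and tup12 passed at no single time. The F-test of tup11 in WT did not pass (limma adjusted p = 0.11), but did without scaling (0.010). Those of tup12 (limma adjusted p = 0.038) and php5 (0.031) in WT passed, and were lost with no filter (0.062 and 0.053) and without any of several single libraries. scr1, the gene of the glucose repressor, rose by 0.96, 0.84 and 1.03 at 60, 120 and 180 min in the atf21Δ-labelled libraries, with 0.99 at 180 min in WT, which did not pass. Of the genes of the CCAAT-binding complex, php2 fell by 0.74 at 30 min in WT and by 0.63 and 0.69 at 15 and 30 min in the atf21Δ-labelled libraries, php3 rose by 0.75 at 30 min in WT, and php5 passed at no single time. In all, 2 of these 9 genes were higher and 2 lower at 15 min in WT, and 3 higher and 1 lower at 30 min (all features: 10.8% and 11.5%, then 15.5% and 13.2%). The atf21Δ-labelled libraries gave 2 higher and 3 lower, and 2 higher and 2 lower (all features: 13.4% and 14.1%, then 19.7% and 19.1%).

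Of the 5 genes of the MAP kinase cascade, 4 were lower at 15 min in each strain, where 11.5% of all features were lower in WT and 14.1% in the atf21Δ-labelled libraries. The median of the list was -0.80 in WT and -0.62 in the atf21Δ-labelled libraries, and that of all features was 0.00 in both. wis1, the gene of the MAP kinase kinase, fell by 1.27 and 0.72, wis4 by 0.80 and 0.62, mcs4 by 0.81 and 0.62 and win1 by 0.55 and 0.59. sty1, the MAP kinase gene, was the exception, with 0.30 and 0.22 at 15 min, which did not pass, and a rise of 0.51 at 30 min in the atf21Δ-labelled libraries. At 30 min wis1 and win1 were still lower there, by 0.59 and 0.27. The F-test of sty1 passed in WT (limma adjusted p = 0.031) and in the atf21Δ-labelled libraries (0.0051). It was lost in both without scaling (0.56 and 0.19) and with quantile normalization (0.18 and 0.051). All 7 osmotic stress markers were higher at 15 and 30 min in both strains, from 1.72 (tps1) to 4.65 (pyp2) at 15 min in WT. Of all features, 10.8% and 15.5% were higher at 15 and 30 min in WT, and 13.4% and 19.7% in the atf21Δ-labelled libraries. At 30 min ctt1, the catalase gene, reached 5.97 in WT and 6.22 in the atf21Δ-labelled libraries, and gpd1, for glycerol synthesis, 2.73 and 3.00. tps1 (trehalose synthesis) reached 2.96 and 3.29, hsp9 4.47 and 4.76, srk1 3.79 and 3.80, gpx1 3.55 and 3.62 and pyp2 5.14 and 5.13. The 30 min changes of pka1 (2.68) and cgs1 (2.67) in WT were close to that of gpd1, the smallest of the 7 markers.

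Other genes that glucose or cAMP represses were lower or passed no test. ste11, the gene of a factor for sexual development, fell by 1.24 at 15 min in WT and by 1.07 in the atf21Δ-labelled libraries, from 3.82 ± 0.77 and 2.72 ± 0.33 RPKM at 0 min (SD, n = 3). mei2, for meiosis, fell by 1.27 and 1.25 at 30 and 60 min in WT and by 0.76 at 30 min in the atf21Δ-labelled libraries. In the latter its F-test did not pass (limma adjusted p = 0.15), but did with no filter (0.046) and without the trend (0.030). The F-test of ste11 in WT was lost without any of 11 libraries (0 min replicates 2 and 3, 15 min 1 and 2, 30 min 2, 60 min 1, 2 and 3, 120 min 2, 180 min 2 and 3, limma adjusted p = 0.062 to 0.15) and in the atf21Δ-labelled libraries without 15 min replicate 1 (0.055), and that of mei2 in WT without 0 min replicates 2 (0.058) or 3 (0.062). gld1, for glycerol use, passed at no single time. inv1, the invertase gene, was too low to test, with 0.12 to 0.32 RPKM as group means in WT and 0 to 22 reads per library. None of the 3 tested genes was higher at any time in either strain (limma).

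**Figure D5:**
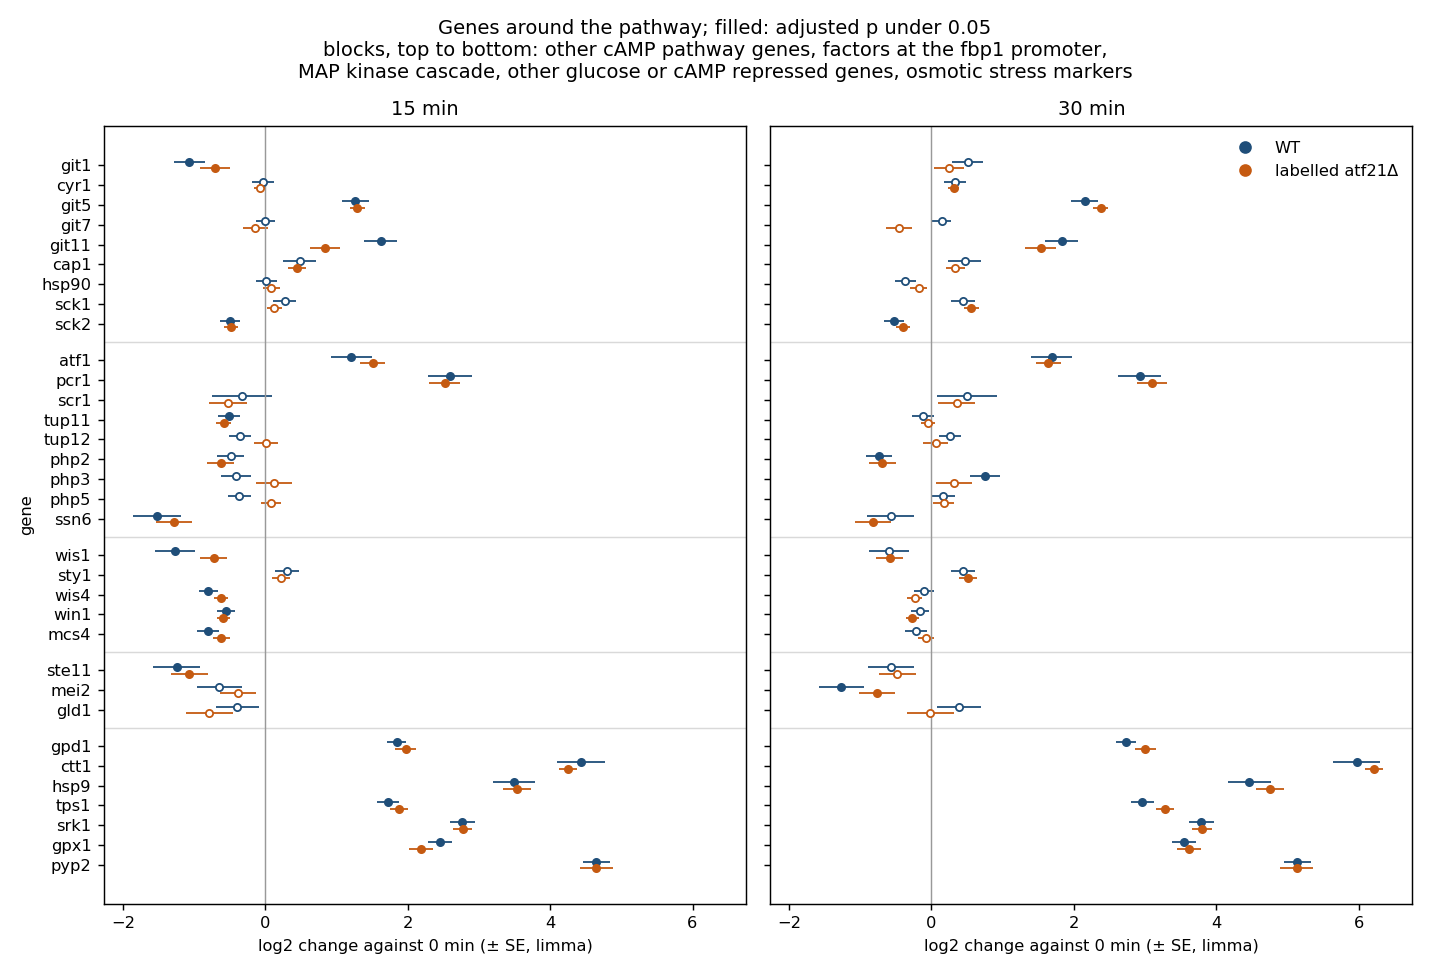
Log2 change against 0 min (x axis, ± SE from limma) at 15 min (left) and 30 min (right) for the 33 tested genes of 5 lists, WT in blue and the atf21Δ-labelled libraries in orange; filled points passed the test. git5, git11, atf1 and pcr1 lie to the right at both times, 4 of the 5 MAP kinase cascade genes lie to the left at 15 min, and all 7 osmotic stress markers lie to the right.

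Features whose log2 level ran most like that of fbp1 over the 36 libraries were SPCC594.04c, SPAC9E9.15, SPCC61.03 (nnr2 in RefSeq), SPAC607.08c (mil1) and vps1302, each with a Pearson's r of 0.84. Within WT their r was 0.84 to 0.89, and within the atf21Δ-labelled libraries 0.80 to 0.85. The features least like it were SPAC1565.05 (utp8) and rpc34, the gene of an RNA polymerase III subunit, with an r of -0.85 each. They stood at 46.2 and 27.5 RPKM at 0 min in WT and at 16.9 and 7.16 RPKM at 30 min. pka1 ran closest to ish1, a stress-responsive nuclear envelope gene, and SPAC11E3.14 (r of 0.98 each), and cgs1 to SPAC32A11.02c (0.98) and SPAC2C4.17c (msy2 in RefSeq, 0.97), a mechanosensitive channel gene. The levels of ish1 and SPAC32A11.02c at 30 min in WT were 278 and 272 RPKM, from 10.1 and 7.64 RPKM at 0 min. git3 ran with rng2 (0.94) and byr4 (0.92), both genes of cytokinesis control. For cgs2 the closest were SPAC1A6.07 (sle1 in RefSeq, 0.82) and cyc1 (0.78), for rst2 SPBC354.09c (tre1, 0.83) and SPAC11D3.07c (toe4, 0.82), and for gpa2 mip1 (0.84) and sre2 (0.83). All these values describe 36 libraries that share 6 times and 2 strains.

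Among the 7 genes themselves, fbp1 ran most like pka1 (r of 0.80, rho of 0.62) and cgs1 (0.77 and 0.66), the genes of the kinase that represses it, and less like its activator rst2 (0.41 and 0.24). git3 ran against cgs1 (-0.50) and pka1 (-0.34) and with gpa2 (0.57). rst2 and gpa2 had an r of 0.58.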

How the data were processed

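RNA was sequenced strand-specifically (SOLiD 5500xl, total RNA with ribosomal RNA reduced). The authors mapped reads with SHRiMP2 to the PomBase release 11 genome, discarded reads that mapped to several places, and deposited RPKM per strand and feature, with no further normalization. Groups came from the sample titles. Libraries were brought to a common scale by the trimmed mean of their log ratios, unweighted (30% and 5% trimmed), features under a minimum RPKM of 1 in all but 6 or fewer libraries were left out (5882 stayed) and log2(RPKM + 0.5) was tested with limma 3.58.1 (R 4.3.3, trend). Log2 changes are on that scale, which understates those of low genes such as fbp1, and folds are ratios of mean scaled RPKM. Each strain was fitted on its own, and the strains were compared in 1 fit of 36 libraries. Single times were adjusted over features and times (Benjamini-Hochberg, 0.05). The fit was also run on simulated counts with independent libraries and a common dispersion, a simpler setting than these data, and no result here rests on that run. Tables were handled in Python 3.11.15 with pandas 2.3.3 and numpy 2.4.6, exact tests run in scipy 1.17.1, and figures drawn in matplotlib 3.10.9.

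The deposited RPKM gave whole reads for 100% of 253404 values (within 0.001). limma-voom on those reads called 3315 features in WT and 3711 in the atf21Δ-labelled libraries. Read numbers limit the precision of fbp1 most, and they cover counting error only. All 36 pairs of replicates differed beyond sampling noise. The p-values measure the spread between the libraries of a group. The labels give these only replicate numbers, and the paper's captions call them biological replicates. The members and lists were chosen with earlier results of these data known. All 7 members are described, the listed genes are named where they passed the test at any time, and the features most like each member in level were named by Pearson's r. Alternatives were the pseudocount, scaling, filter, trend, voom, a replicate block, 1 fit for both strains and leaving out each library. Promoters and further gene names came from RefSeq (ASM294v3).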

Additional observations from a re-analysis of the deposited data

How the results depend on the processing

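Of the 34 tests of the 7 genes that passed, 28 did so without any single library and 25 under every other setting. Of the 92 that did not, 8 passed without some library and 9 under some other setting. The 30 min rises of pka1, cgs1 and fbp1 and the 15 min fall of git3 passed under all settings in both strains, with a change for fbp1 of 1.26 to 1.90 in WT and 1.39 to 2.36 in the atf21Δ-labelled libraries. Among the listed genes, cyr1 in WT turned from 0.33 to -0.056 at 30 min when the RPKM were not scaled, and its F-test then passed (limma adjusted p = 0.014). The 2 features whose time course differed between the strains became 1 without scaling and 1 with voom, and 2 to 36 with a library left out (36 without WT 15 min replicate 2). The 19 features that differed at a single time became 4 without scaling, 8 with quantile normalization and 7 with a minimum RPKM of 5, and 7 to 188 with a library left out (188 again without WT 15 min replicate 2). With a library left out, the features that changed over time numbered 2753 to 3200 in WT (3046 with all) and 3375 to 3646 in the atf21Δ-labelled libraries (3662 with all). At 30 min in WT, 42.2% of the calls were higher after quantile normalization, against 54.0% in the main analysis. The cause of these shifts was not tested.

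Samples with the same replicate number in a strain correlated at -0.23 to 0.50 in their deviations (median 0.17, 60 of 90 pairs over 0.1), and samples with different numbers at -0.48 to 0.29 (median -0.075, 16 of 180 over 0.1). Between the strains, samples with the same number had a median of 0.075 (49 of 108 pairs over 0.1). Those with different numbers had a median of -0.043 (33 of 216 over 0.1). Same-numbered samples thus deviated together more often, within and between the strains, but not in every pair. No label ties a number to a shared batch or day, so the numbers were not taken as a pairing. With the replicate number as a block, 3420 features changed in WT and 4129 in the atf21Δ-labelled libraries, 2 differed between the strains in time course and 18 at a single time. The block also brought the F-tests of gpa2 in WT (limma adjusted p = 0.029) and of rst2 in the atf21Δ-labelled libraries (0.029) past the threshold, so that all 7 genes passed in both strains, as well as cgs2 at 30 min (0.037) and git3 at 180 min (0.019) in WT. Counts limit fbp1, with a median of 28.5 reads, and SPNCRNA.1325, with at most 58.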
